A study of Mus musculus with 6 samples.

Results

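Single cells sorted from mouse kidney through a gate labelled mesenchyme were compared between kidneys at day 2 of unilateral ureteric obstruction (UUO, ligation of 1 ureter) and uninjured kidneys. Wells were chosen by the deposited plate layouts, as those labelled mesenchyme with either condition, and were kept with at least 1000 genes detected and 20000 reads on genes. This gave 730 wells of 2235 in the whole series, 366 from day 2 UUO kidneys (of 384 sorted) and 364 from uninjured kidneys (of 372 sorted). The layouts number the wells 1 to 4 within each condition, and each number was taken as 1 mouse, which the labels do not state outright. The day 2 UUO wells numbered 111, 64, 64 and 127 in numbers 1 to 4, and the uninjured wells 120, 61, 61 and 122. Counts were summed over the wells of each number and condition, so n = 4 sums per condition, and the p-values measure the spread between these sums. Each of the 6 plates mixed cells of a healthy mouse, a day 2 mouse and a day 10 mouse, and number 1 lies on plates 1 and 2, number 2 on plate 3, number 3 on plate 4 and number 4 on plates 5 and 6. Within every plate the day 2 UUO and the uninjured mesenchyme wells fill separate columns, so that condition and plate column cannot be told apart. Strain, age, sex and reporter allele are not given in the sources used here, and the count tables include an eGFP entry. Smart-seq2 reads whole transcripts of the 1 cell in a well and has no molecular identifiers.

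Renal mesenchyme includes the mural cells that wrap vessels (vascular smooth muscle cells and pericytes), mesangial cells of the glomerulus, renin cells and interstitial fibroblasts. Obstruction raises pressure in the tubules, injures the epithelium and leads in time to interstitial fibrosis, for which mesenchymal cells supply matrix. Cytokines of the interleukin 6 family, among them interleukin 6, interleukin 11 and oncostatin M, share the signalling subunit gp130 (Il6st), which oncostatin M engages together with Osmr, and signal through the transcription factor STAT3, which binds DNA as a dimer at palindromic sites. In liver the same pathway drives the acute phase proteins, secreted at injury.

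Because Il6st, Osmr, Stat3 and several acute phase genes rose together, the 300 bases around each listed start (250 before, 50 after; a gene can have several, and a match at any counts) in the RefSeq promoter table (GRCm38.p6) were searched for TTCNNNGAA, the palindromic core that STAT factors bind, which reads the same on both strands. Of the 49 genes that rose 39 had a promoter entry, as had 18 of the 23 that fell. A match stood in 8 of the 39 (20.5%), in 1 of the 18 (5.56%), in 1020 of 12084 genes tested (8.44%) and in 2582 of 27025 genes of the table (9.55%). A match is a description of letters and not a binding site. The 120 bases before the start are shown for 4 of the genes that rose, 5′ to 3′ on the gene's strand, with the match in capitals.
Itih4, chr14:30886356-30886475, strand +: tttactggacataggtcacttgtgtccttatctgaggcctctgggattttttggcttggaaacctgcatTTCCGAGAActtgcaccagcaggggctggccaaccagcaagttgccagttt
Fgl2, chr5:21372553-21372672, strand +: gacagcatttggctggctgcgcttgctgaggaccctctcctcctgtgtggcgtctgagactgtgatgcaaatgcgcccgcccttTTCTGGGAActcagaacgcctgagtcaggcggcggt
Sbno2, chr10:80101188-80101307, strand -: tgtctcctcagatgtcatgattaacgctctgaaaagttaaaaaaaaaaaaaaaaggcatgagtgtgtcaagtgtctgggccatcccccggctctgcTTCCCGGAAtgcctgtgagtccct
Pros1, chr16:62854187-62854306, strand +: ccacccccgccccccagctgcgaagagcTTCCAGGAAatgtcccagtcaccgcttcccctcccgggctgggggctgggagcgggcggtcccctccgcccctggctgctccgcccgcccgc
The match begins 51 bases before the start of Itih4, 36 before that of Fgl2 and 92 before that of Pros1. For Sbno2 it begins 24 bases before an alternative start that lies inside the annotated gene (chromosome 10, 80056992 to 80106108, minus strand), and a second alternative start has a match 26 bases before it (80102703 to 80102822, not shown). These 4 are shown because they hold a match close to a listed start. Among the other genes that rose, Abi1, Ifitm3, Ssbp4 and Tnfrsf1a also held 1. Il6st, Osmr, Stat3, Il11, Serpina3n and Lcn2 had a promoter entry and held no match. Of the acute phase genes that rose only Itih4 held 1.

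The median well held 377554 gene reads and 3531.5 genes at day 2 UUO, against 355733 reads and 3317 genes in uninjured kidneys, and 12 control wells held a median of 3264 reads. Defining markers of mural cells were high in both conditions: the summed level of 10 vascular smooth muscle markers ran from 27904 to 34195 CPM (counts scaled to the library size) at day 2 UUO and from 33940 to 37870 CPM in uninjured kidneys. The gate also held other cells. Summed podocyte markers ran from 1584 to 8081 CPM at day 2 UUO and from 766 to 3350 CPM in uninjured kidneys. Proximal tubule markers ran from 249 to 806 CPM at day 2 UUO and from 173 to 2163 CPM in uninjured kidneys, and injured tubule markers from 20.8 to 42.9 CPM at day 2 UUO and from 5.28 to 34.5 CPM in uninjured kidneys. Endothelial markers ran from 155 to 490 CPM at day 2 UUO and from 293 to 445 CPM in uninjured kidneys, and myeloid markers from 83.7 to 161 CPM at day 2 UUO and from 45.7 to 324 CPM in uninjured kidneys. Neither sum shows such cells in the gate. The highest endothelial markers in every sum were Emcn and Ehd3, while Pecam1 was at most 4.02 CPM. Emcn was also a leading gene of a cluster named pericyte-like below. Myeloid reads lay mostly on Cd74 and Csf1r, while Ptprc was at most 0.899 CPM. No cluster of wells was named endothelial or myeloid. These marker sums are without TMM normalisation, which the CPM of single genes given below include. Of these marker lists, 1 gene (Lcn2, an injured tubule marker) passed the test below. The Y-linked genes Ddx3y and Eif2s3y were read in all 8 sums. Reads on genes per read on the ERCC spike-in RNA were 371, 383, 438 and 414 at day 2 UUO against 284, 279, 361 and 363 in uninjured kidneys, a ratio of 1.26 that was higher in 4 of 4 numbers (exact permutation test, two-sided p = 0.0286, the smallest that 4 against 4 allows). With means over wells in place of medians the difference was 0.23 on the log2 scale (exact p = 0.229). In sums over wells, fewer cells of a type and less RNA per cell cannot be told apart.

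The comparison asks how the gate's cells respond early to obstruction. In all, 72 of 16393 genes tested passed (0.439%; edgeR quasi-likelihood test, Benjamini-Hochberg adjusted p under 0.05), of which 49 rose (0.299%) and 23 fell (0.14%) at day 2 UUO. All 72 had 1 sign in 4 of 4 numbers, and in 68 the 4 day 2 UUO sums did not overlap the 4 uninjured sums, where 5.07% of all genes tested did not overlap (2.49% with day 2 UUO above and 2.57% below). The median change of all genes was 0.00 on the log2 scale, that of the genes that rose 1.28 and that of the genes that fell -1.09. Scaled to the spike-in RNA in place of the gene reads, the median of all genes was 0.24 and 77 genes passed, 74 higher and 3 lower. The count was 25 without number 1, 38 without number 2, 25 without number 3 and 27 without number 4.

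**Figure D1:**
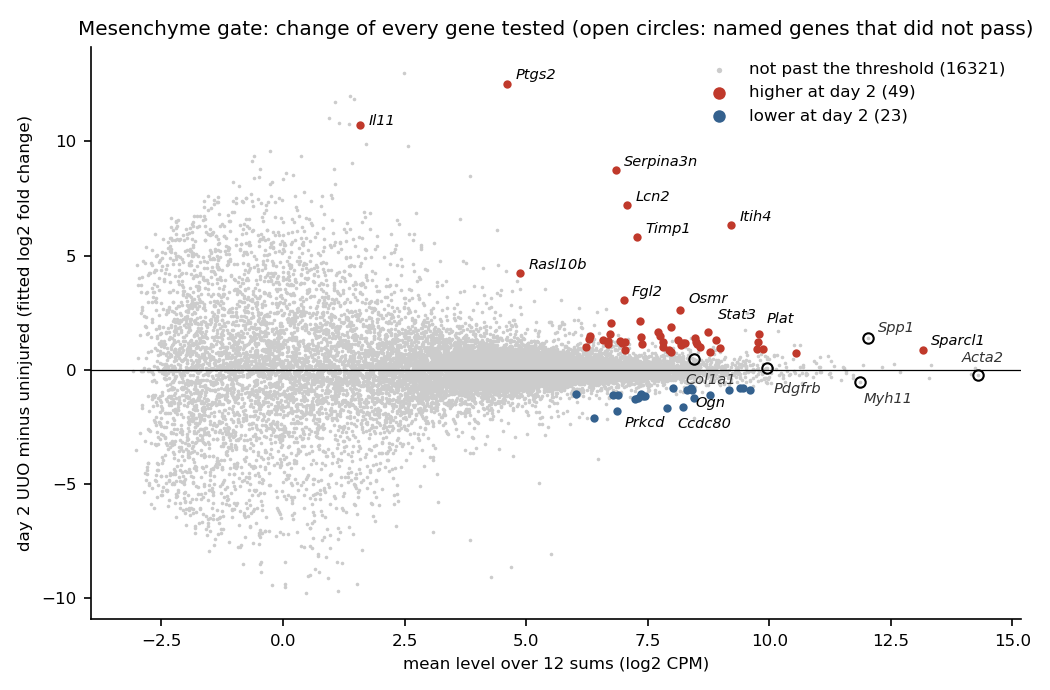
Fitted log2 fold change at day 2 UUO minus uninjured (vertical axis) against the mean level over the 12 mesenchyme sums in log2 CPM (horizontal axis) for the 16393 genes tested. The 49 genes that rose include a few of very large change, such as Itih4 at 6.32, the 23 that fell sit nearer to 0, and the open circles of Acta2, Myh11, Pdgfrb, Col1a1 and Spp1 mark genes that did not pass.

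Of the 25 receptor, ligand and signalling genes of the interleukin 6 family 4 rose and 0 fell, beside 0.299% and 0.14% of all genes. This list and those below were chosen with earlier results of these data known, so their counts are a description and not a test. Osmr, the oncostatin M receptor subunit (chromosome 15, 6813568 to 6874968, GRCm38.p6), had 608, 460, 215 and 338 CPM in the day 2 UUO sums and 125, 25.8, 40.8 and 91.3 CPM in the uninjured sums, a log2 fold change of 2.63 ± 0.32 (SE; edgeR adjusted p = 0.0037). Il6st, the shared subunit gp130 (chromosome 13, 112464070 to 112506860), had 588, 500, 390 and 473 CPM at day 2 UUO against 188, 198, 161 and 199 CPM in uninjured kidneys. Il6st had a log2 fold change of 1.38 ± 0.16 (edgeR adjusted p = 0.00319). Stat3, the transcription factor downstream (chromosome 11, 100886806 to 100939594), had 554, 601, 654 and 641 CPM at day 2 UUO against 208, 237, 162 and 177 CPM in uninjured kidneys. Stat3 had a log2 fold change of 1.66 ± 0.15 (edgeR adjusted p = 0.0016). For these 3 genes the lowest day 2 UUO sum lay above the highest uninjured sum. Exons of Stat3 overlap Stat5a on the other strand, and whether the counting used strand is not given in the sources used here. Il11, which encodes the cytokine interleukin 11 (chromosome 7, 4772373 to 4782907), had 5.9, 1.91, 5.53 and 12.9 CPM in the day 2 UUO sums and no read in any uninjured sum. Pooled over numbers it was at least 317-fold higher at day 2 UUO, with the uninjured level set at 3 reads of 125045878 (edgeR adjusted p = 0.0449). Its adjusted p was 0.254, 0.078, 0.158 and 0.341 without numbers 1, 2, 3 and 4, and 0.159 without the wells of epithelial-like clusters, and that of Il6st was 0.063 without number 1.

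The other ligands and the feedback genes of the family gave values that did not pass. Il6 had 28.3, 11.9, 23.3 and 40.3 CPM at day 2 UUO against 1.97, 10, 0 and 18.9 CPM in uninjured kidneys, with overlapping groups, and Osm itself had 1 sum above 0, at 0.0209 CPM at day 2 UUO. Socs3, the feedback inhibitor that STAT3 induces, had a change of 1.00 ± 0.49 (edgeR adjusted p = 0.583), with overlapping groups. Bcl3, an IkB-like co-regulator, had 27.8, 43.1, 30 and 13.7 CPM at day 2 UUO against 1.4, 0, 2.19 and 1.94 CPM in uninjured kidneys, which do not overlap (edgeR adjusted p = 0.0943). The median change of the 25 members was 0.97.

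**Figure D2:**
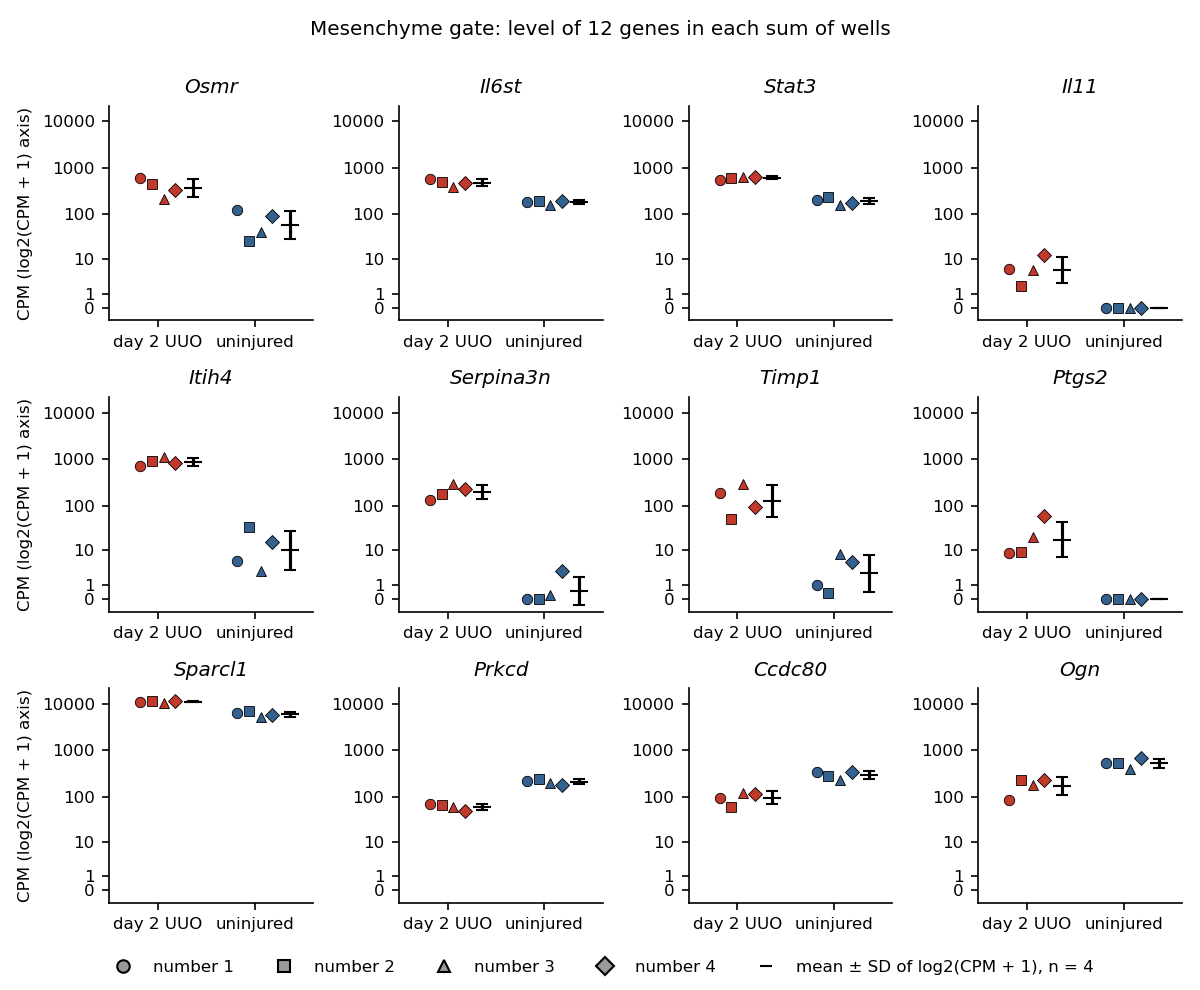
Level of 12 genes in CPM, on a log2(CPM + 1) axis, in each sum of wells at day 2 UUO (red, left) and in uninjured kidneys (blue, right); markers give the number from 1 to 4 and bars the mean and SD of log2(CPM + 1), n = 4. In each of the 12 panels the red and the blue points do not overlap, with Osmr between 215 and 608 CPM at day 2 UUO and between 25.8 and 125 CPM in uninjured kidneys.

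Secreted acute phase proteins held 3 of the genes of largest change. Of 22 listed, 17 were tested, 3 rose and 0 fell (0.299% and 0.14% of all genes), with a median change of 2.32. Itih4, a heavy chain of the inter-alpha-trypsin inhibitor family (chromosome 14, 30886476 to 30901986), had 713, 934, 1114 and 811 CPM at day 2 UUO against 5.39, 33.7, 2.92 and 16.1 CPM in uninjured kidneys. Itih4 had a log2 fold change of 6.32 ± 0.57 (edgeR adjusted p = 0.0016). Serpina3n, a secreted serine protease inhibitor (chromosome 12, 104406646 to 104414334), had 131, 179, 286 and 233 CPM at day 2 UUO against 0, 0, 0.195 and 3.03 CPM in uninjured kidneys, a fitted change of 8.74 ± 0.96 (edgeR adjusted p = 0.00245). Neither gene overlapped between conditions, and Serpina3n shares sequence with other Serpina3 genes, so reads could be split among them. Lcn2, the iron-binding lipocalin that injured tubule cells also make, had 8.9, 3.06, 13.7 and 1.21 CPM at day 2 UUO against 0, 0.0478, 0.0487 and 0.0473 CPM in uninjured kidneys (edgeR adjusted p = 0.00372). Its adjusted p was 0.0719 without number 3, and 0.103 without the wells of epithelial-like clusters. Its fitted change was 7.19 ± 0.88 in the whole gate and 7.95 ± 1.83 without the wells of epithelial-like clusters. The injured tubule marker Havcr1 had 7.71, 0, 5.07 and 9.81 CPM at day 2 UUO against 0, 0, 0 and 0.0236 CPM in uninjured kidneys. The part of tubule RNA in the level of Lcn2 was not tested, and its wells by class are given below. Clu, the secreted chaperone clusterin, had 986, 1099, 1220 and 1403 CPM at day 2 UUO against 516, 169, 469 and 304 CPM in uninjured kidneys, a change of 1.71 ± 0.35 that did not pass across the gate (edgeR adjusted p = 0.0855).

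Ptgs2, the inducible cyclooxygenase that makes prostaglandin precursors (chromosome 1, 150100031 to 150108234), had 8.69, 9.14, 20.7 and 58.6 CPM at day 2 UUO and no read in any of the 4 uninjured sums, at least 1200-fold higher when pooled, with the uninjured level set at 3 reads of 125045878 (edgeR adjusted p = 0.0016). It was the only member to rise among 34 vasoactive receptors and pathway genes, where 0.299% of all genes rose. Ramp1, a subunit of the receptor for calcitonin gene-related peptide, was the only member that fell, where 0.14% of all genes fell. Ramp1 had 98.3, 146, 132 and 83 CPM at day 2 UUO against 270, 254, 211 and 216 CPM in uninjured kidneys. Ramp1 had a log2 fold change of -1.08 ± 0.18 (edgeR adjusted p = 0.0347, and 0.066 to 0.261 with any 1 number left out). The list's median change was 0.00. Ren1, the renin gene, had 98.9, 29.3, 54.7 and 127 CPM at day 2 UUO against 73.3, 18.3, 33.7 and 25.1 CPM in uninjured kidneys, with overlapping groups (edgeR adjusted p = 0.26).

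Of 25 matrix proteases and inhibitors 3 rose and 0 fell (0.299% and 0.14% of all genes), with a median change of 0.40. Timp1, an inhibitor of metalloproteinases (chromosome X, 20870166 to 20874737), had 187, 50.1, 296 and 91.3 CPM at day 2 UUO against 1.02, 0.334, 8.42 and 5.34 CPM in uninjured kidneys. Timp1 had a log2 fold change of 5.80 ± 0.57 (edgeR adjusted p = 0.00225). Plat, tissue plasminogen activator, had 1101, 1756, 1239 and 1115 CPM at day 2 UUO against 320, 472, 588 and 388 CPM in uninjured kidneys. Plat had a log2 fold change of 1.58 ± 0.17 (edgeR adjusted p = 0.00245). Both genes were apart in every sum. Serpine2, an inhibitor of plasminogen activators and thrombin, had 1641, 1314, 1144 and 1393 CPM at day 2 UUO against 713 to 1154 CPM in uninjured kidneys, a change of 0.71 ± 0.10 in which the lowest day 2 UUO sum lay just below the highest uninjured sum (edgeR adjusted p = 0.0119, and 0.0568 to 0.215 with any 1 number left out).

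Among 18 matricellular genes 2 rose and 0 fell (0.299% and 0.14% of all genes). Sparcl1, a SPARC-like secreted protein (chromosome 5, 104079108 to 104114088), had 10827, 11493, 10650 and 11234 CPM at day 2 UUO against 6247, 6901, 5107 and 5835 CPM in uninjured kidneys. Sparcl1 had a log2 fold change of 0.89 ± 0.10 (edgeR adjusted p = 0.00245). Fgl2, a secreted fibrinogen-like protein, had 209, 225, 206 and 213 CPM at day 2 UUO against 42.5, 13.1, 25.4 and 25.7 CPM in uninjured kidneys. Fgl2 had a log2 fold change of 3.06 ± 0.32 (edgeR adjusted p = 0.00245). The day 2 UUO sums of Fgl2 lay within 206 to 225 CPM, a narrower range than the uninjured ones in proportion. Of 28 fibrillar collagen and fibre genes, Emilin1, a glycoprotein of elastic fibres, was the 1 that rose (1.24 ± 0.19, edgeR adjusted p = 0.0184, and up to 0.177 with 1 number left out). Col1a1 had 186, 18, 332 and 110 CPM at day 2 UUO against 38.4, 12.4, 228 and 239 CPM in uninjured kidneys, with overlapping groups (edgeR adjusted p = 0.801). Basement membrane genes had 0 of 19 past the threshold (edgeR; median -0.20, and 0.06 when scaled to the spike-in RNA), with Col18a1 at 0.23 ± 0.10 and Col4a1 at 0.22 ± 0.14.

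Small leucine-rich proteoglycans and matrix-binding proteins had 0 of 17 that rose and 2 that fell (0.299% and 0.14% of all genes), with a median change of -1.15. Ccdc80, a secreted matrix-binding protein (chromosome 16, 45093407 to 45127924), had 96.3, 60.2, 123 and 114 CPM at day 2 UUO against 342, 280, 235 and 338 CPM in uninjured kidneys. Ccdc80 had a log2 fold change of -1.66 ± 0.22 (edgeR adjusted p = 0.006). Ogn, the proteoglycan osteoglycin, had 86.7, 226, 182 and 228 CPM at day 2 UUO against 546, 540, 395 and 679 CPM in uninjured kidneys. Ogn had a log2 fold change of -1.63 ± 0.29 (edgeR adjusted p = 0.0449). Both stood lower in every day 2 UUO sum. With 1 number left out the adjusted p of Ccdc80 ran up to 0.104 and that of Ogn up to 0.254. Without the 25 fibroblast-like wells of both conditions the median of this list was -0.06.

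Genes of other lists, or of none, also fell. Prkcd, the kinase protein kinase C delta, had 70, 65.9, 61 and 48.7 CPM at day 2 UUO against 219, 247, 198 and 183 CPM in uninjured kidneys. Prkcd had a log2 fold change of -1.79 ± 0.19 (edgeR adjusted p = 0.00245), and it passed in every alternative run. Of 22 growth factor receptor, ligand and signalling genes 0 rose and 3 fell (0.299% and 0.14% of all genes). They were the kinase gene Prkcd, Grb14, an adaptor of the insulin receptor (-1.27 ± 0.19), and Ntrk3, the receptor of neurotrophin 3 (-1.09 ± 0.19). Grb14 had 61.5, 106, 126 and 120 CPM at day 2 UUO against 253, 223, 234 and 260 CPM in uninjured kidneys. Slc29a1, a nucleoside transporter (-1.25 ± 0.20), Gstm1, a glutathione transferase (-1.22 ± 0.22), Dhrs3, a retinaldehyde reductase (-1.14 ± 0.18), and Gas6, the ligand of the receptor Axl (-1.14 ± 0.19), also fell. So did Mamdc2 (-1.11 ± 0.20), the surface glycoprotein gene Cd24a (-1.10 ± 0.20), the deacetylase gene Hdac9 (-1.07 ± 0.19), Tril, an accessory protein of Toll-like receptor 4 (-1.06 ± 0.14), and Dmd, which encodes dystrophin (-0.91 ± 0.17). The edgeR adjusted p of these 11 genes other than Prkcd lay between 0.00683 and 0.0449, and with 1 number left out each rose above 0.05 at least once, up to 0.303 for Hdac9 and Mamdc2. When scaled to the spike-in RNA, Prkcd (-1.54, edgeR adjusted p = 0.0032) and Ccdc80 (-1.43, edgeR adjusted p = 0.029) were the named genes that still passed as lower.

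Further genes of large positive change did not belong to these lists. Rasl10b, a small GTPase gene, had 24.4, 33.1, 82.7 and 65.7 CPM at day 2 UUO against 0.774, 1.43, 4.23 and 5.72 CPM in uninjured kidneys. Rasl10b had a log2 fold change of 4.24 ± 0.45 (edgeR adjusted p = 0.00245). Flot1, a scaffold of membrane rafts, had a change of 2.12 ± 0.23, and Sbno2, a transcriptional co-regulator, of 2.04 ± 0.23. Synm, the intermediate filament synemin, had 326, 279, 341 and 286 CPM at day 2 UUO against 101, 85.3, 99 and 101 CPM in uninjured kidneys. Synm had a log2 fold change of 1.67 ± 0.19 (edgeR adjusted p = 0.00301), and exons of it overlap Ttc23 on the other strand. Crispld2, a secreted glycoprotein gene, had a change of 1.86 ± 0.32 (edgeR adjusted p = 0.0383, and up to 0.262 with 1 number left out).

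The contractile genes of mural cells had 0 of 23 past the threshold, with a median change of -0.22 that was 0.01 when scaled to the spike-in RNA. Acta2, smooth muscle actin, had 19508, 22056, 23593 and 18860 CPM at day 2 UUO against 24891, 24691, 24886 and 22358 CPM in uninjured kidneys (-0.21 ± 0.09, edgeR adjusted p = 0.54, and 0.04 when scaled to the spike-in RNA), with overlapping groups. Myh11, smooth muscle myosin, had 3301, 3340, 3704 and 3474 CPM at day 2 UUO against 5073, 5661, 4507 and 5130 CPM in uninjured kidneys (-0.55 ± 0.13, edgeR adjusted p = 0.144). The Myh11 groups did not overlap, as 5.07% of all genes did not. Pdgfrb, the receptor of mural cells and fibroblasts, had 1124, 877, 1178 and 1073 CPM at day 2 UUO against 1102, 853, 1059 and 1002 CPM in uninjured kidneys (0.08 ± 0.11, edgeR adjusted p = 0.88). Of 20 mural identity genes 1 fell, Ntrk3, beside 0.14% of all genes, and the median was -0.35.

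**Figure D3:**
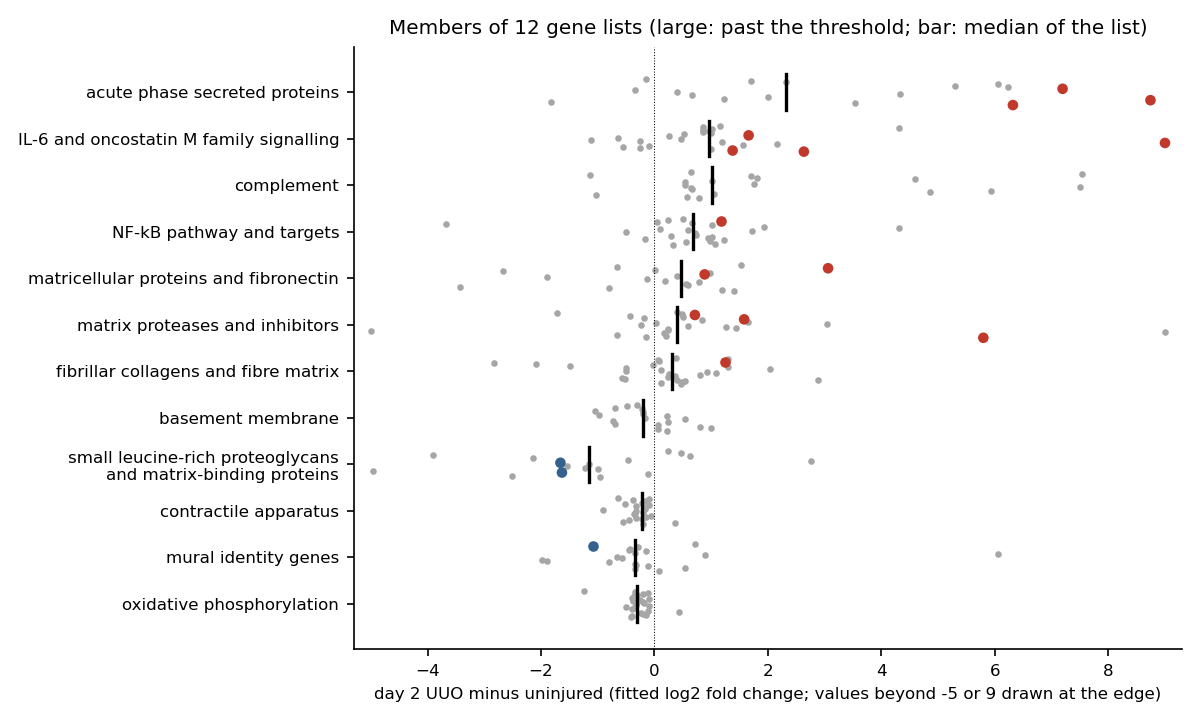
Fitted log2 fold change at day 2 UUO minus uninjured of each tested member of 12 lists, 1 point per gene; large red points rose, large blue points fell, small grey points did not pass and the black bar is the list's median. Acute phase proteins have a median of 2.32 with 3 members past the threshold, and contractile genes lie in a narrow band around -0.22 with none.

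Inflammatory and stress lists held few genes past the threshold, to be read beside the 0.299% of all genes that rose and the 0.14% that fell. Tnfrsf1a, the receptor of tumour necrosis factor, was the 1 of 24 NF-kB pathway genes that rose (1.17 ± 0.16, edgeR adjusted p = 0.0076, and up to 0.143 with 1 number left out; list median 0.69). Ifitm3, an antiviral membrane protein, was the 1 of 30 interferon response genes (1.23 ± 0.15, edgeR adjusted p = 0.00397, and 0.0673 without number 3; list median 0.44). Complement had 0 of 19 past the threshold across the gate with a median of 1.02, and Serping1, the inhibitor of C1, stood at 0.54 ± 0.13 (edgeR adjusted p = 0.144). None of 24 chemokines and cytokines passed (median 0.70), with Cxcl12 at -0.06 ± 0.35 and Cx3cl1 at 0.73 ± 0.33, and none of 15 class I genes (median 0.23), with B2m at 0.23 ± 0.18 and H2-K1 at 0.11 ± 0.15. None of 31 immediate early genes passed (median 0.23), with Fos at 0.21 ± 0.24 and Cyr61 at 0.19 ± 0.15, and none of 26 unfolded protein response genes (median 0.43), with Hspa5 at 0.45 ± 0.28 and Pdia3 at 0.22 ± 0.20. In these 5 lists without a passing gene, edgeR was the tool, and over all genes 1477 had an unadjusted p under 0.05.

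Lists of metabolism, clock and growth also held few such genes, again beside 0.299% of all genes that rose and 0.14% that fell. Ldha, the glycolytic lactate dehydrogenase, had 677, 536, 964 and 565 CPM at day 2 UUO against 252, 247, 339 and 266 CPM in uninjured kidneys. Ldha had a log2 fold change of 1.29 ± 0.15 (edgeR adjusted p = 0.00293), and was the 1 of 28 hypoxia and glycolysis genes that rose (list median -0.03). Hif1a, the oxygen-regulated transcription factor, is not in that list and had 367, 321, 196 and 362 CPM at day 2 UUO against 164, 155, 62.7 and 181 CPM in uninjured kidneys (1.21 ± 0.16, edgeR adjusted p = 0.0076). Hif1a was named after its values were seen. Oxidative phosphorylation had 0 of 25 past the threshold (edgeR) and a median of -0.31, which was -0.06 when scaled to the spike-in RNA, with Atp5b at -0.31 ± 0.10 and Atp5a1 at -0.37 ± 0.12. Of 24 antioxidant genes Mt1, a metallothionein, rose (1.59 ± 0.22, edgeR adjusted p = 0.0076, and up to 0.0765 with 1 number left out) and Gstm1 fell, with a list median of 0.09. Bhlhe40, a repressor of the clock, was the 1 of 19 clock genes that rose (1.44 ± 0.24, edgeR adjusted p = 0.0273, and up to 0.22 with 1 number left out; list median -0.12). Lrrc32, which anchors latent transforming growth factor beta at the surface, was the 1 of 32 genes of that pathway that rose (0.77 ± 0.12, edgeR adjusted p = 0.0216, and up to 0.232 with 1 number left out; list median -0.11).

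No gene passed edgeR in the remaining lists. Cell cycle genes had a median of 0.26 over 34 members, with Gadd45b at 0.16 ± 0.18 and Ccnd2 at -0.22 ± 0.17. Platelet-derived growth factor genes had a median of -0.06 over 6 (Pdgfa 0.28 ± 0.14), Wnt genes of -0.11 over 20 (Dkk2 -0.20 ± 0.18, Sfrp2 -0.99 ± 0.36) and Notch genes of 0.18 over 15 (Notch3 -0.12 ± 0.16, Notch2 0.32 ± 0.15). Lipid genes had a median of 0.04 over 24 (Lpl 0.42 ± 0.22, Srebf2 -0.23 ± 0.13), glucocorticoid targets of -0.12 over 13 (Dusp1 -0.13 ± 0.18, Errfi1 -0.13 ± 0.14) and steroid receptors of -0.18 over 17 (Nr1h2 0.30 ± 0.16, Nr3c1 -0.29 ± 0.33). YAP and SRF targets had a median of -0.10 over 16 (Axl -0.18 ± 0.18), integrins of 0.03 over 15 (Itgb1 0.13 ± 0.12, Itga7 0.03 ± 0.14) and the sex-linked genes of 0.07 over 4 (Ddx3y 0.70 ± 0.17, Eif2s3y 0.24 ± 0.17).

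The endothelia gate of the same mice and plates allowed a test of whether a change differed between gates. The block in this fit was the number alone. The mesenchyme and endothelia sums of the same mouse were therefore not paired and were treated as independent. In 12 of 16816 genes (0.0714%) the day 2 change differed, being higher in the mesenchyme gate for 9 (0.0535%) and lower for 3 (0.0178%). Within the endothelia gate itself 28 genes passed (0.167%), 14 higher and 14 lower (0.0833% each), and 7 of the 72 genes of the mesenchyme gate were among them. Of the 72 genes of the mesenchyme gate 3 were among the 12, namely Sparcl1, Sncg and a gene with a Rik name. Sparcl1 had a mean of 279 CPM at day 2 UUO against 507 CPM in uninjured kidneys in the endothelia gate (-0.86, edgeR adjusted p = 0.0731), and its change differed between gates by 1.75 ± 0.27 (edgeR adjusted p = 0.0157). Sncg, which encodes gamma-synuclein, had a mesenchyme change of 0.89 ± 0.11, an endothelia change of -0.36, and a difference of 1.27 ± 0.18 (edgeR adjusted p = 0.0072). Sncg and the Rik gene were named after their values were seen. The count of genes that differed was 0, 5, 1 and 3 without numbers 1, 2, 3 and 4, with 1189 at an unadjusted p under 0.05 in the fit that gave 0. The response genes Stat3 (1.16, edgeR adjusted p = 0.000965) and Serpina3n (10.26, edgeR adjusted p = 0.00277) also rose in the endothelia gate, and for neither was a difference between the gates past the threshold (adjusted p = 0.512 for Stat3 and 0.897 for Serpina3n).

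The mesenchyme wells of day 10 UUO kidneys give a later time, set against the same uninjured sums, so the day 10 and day 2 changes are not independent. There 196 of 16393 genes passed (1.2%), 100 higher (0.61%) and 96 lower (0.586%). Itih4 averaged 14.5 CPM in uninjured kidneys, 893 at day 2 and 873 at day 10. Lcn2 had 140, 475, 682 and 292 CPM at day 10, above each day 2 UUO sum. Ccdc80 stood at -1.66 at day 2, and at day 10 it had 342, 240, 441 and 269 CPM, a change from uninjured of 0.07 (edgeR adjusted p = 0.94). Prkcd stood at -1.79 at day 2 and -1.56 at day 10, Serpine2 at 0.71 and 1.44, and Col1a1 at 0.47 and 2.96 (edgeR adjusted p = 0.012 at day 10).

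To see which cells carried these transcripts, the wells were clustered without the 3318 genes that had an unadjusted p under 0.05 in any contrast of the conditions, so that the classes do not rest on the changed genes. Of 366 day 2 UUO and 364 uninjured wells, 137 and 152 were vascular smooth muscle-like, 87 and 87 pericyte-like, 21 and 24 mesangial-like, 14 and 11 fibroblast-like, 23 and 26 parietal epithelial-like, 19 and 5 podocyte-like, 3 and 11 proximal tubule-like, and 1 and 2 loop and distal tubule-like. A cluster led by Ren1 and Akr1b7, with 61 day 2 UUO and 46 uninjured wells, met too few markers to be named. One of the vascular smooth muscle-like clusters, with 247 wells of all conditions, was led by Atf3, Gem and Nr4a2, which are also induced by cell dissociation, and by Itih4, which was not used for clustering. One of the pericyte-like clusters, with 98 wells of all conditions (42 day 2 UUO and 35 uninjured), was led by Apold1, Ccrl2, Nr4a2, Crem and Ppp1r15a, with none of the pericyte markers among its 10 leading genes. The part of dissociation in either class was not tested. The share of wells passed for no class (exact permutation tests over 4 against 4 numbers, lowest unadjusted p = 0.2). The smallest p that these exact permutation tests allow is 0.0286. After adjustment over the classes, a class that changed alone could not have passed. Podocyte-like wells made up 5.41%, 14.1%, 1.56% and 2.36% at day 2 UUO and 0%, 1.64%, 4.92% and 0.82% in uninjured kidneys. The vascular smooth muscle-like and pericyte-like classes had at least 10 wells in every number and could be tested.

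In vascular smooth muscle-like wells 93 of 12933 genes passed (0.719%), 67 higher (0.518%) and 26 lower (0.201%) at day 2 UUO. These wells are part of the gate, so the 49 genes shared with the 72 of the gate (49 of 72 and 49 of 93) are no separate evidence. The genes described next that were not already named were chosen after their values were seen. Itih4 had 1696, 1894, 1436 and 1490 CPM at day 2 UUO against 0.163, 60.5, 7.24 and 31.2 CPM in uninjured kidneys (edgeR adjusted p = 0.0163, and 0.144 and 0.151 without numbers 3 and 4). Serpina3n had 252, 412, 426 and 503 CPM at day 2 UUO against 0, 0, 0 and 0.0597 CPM in uninjured kidneys (edgeR adjusted p = 9.82e-07). Both genes were apart in all 8 sums, but the share of all genes without overlap was not computed for these wells. Clu had 1821, 2056, 1997 and 1654 CPM at day 2 UUO against 287, 217, 195 and 398 CPM in uninjured kidneys. Clu had a log2 fold change of 2.84 ± 0.21 (edgeR adjusted p = 0.000132). Of 13 complement genes tested here 3 rose, beside 0.518% of all genes tested here. Among them, Serping1 had a change of 0.79 ± 0.14 (edgeR adjusted p = 0.0228), and C4b had 19.1, 21.4, 18.3 and 9.7 CPM at day 2 UUO and no read in uninjured wells (edgeR adjusted p = 0.0247, and 0.0762 to 0.188 with 1 number left out). Reads of C4b and its near copy C4a can be split between them. Bcl3 had 18.6, 86.8, 25 and 12.6 CPM at day 2 UUO and no read in 152 uninjured wells, at least 537-fold higher with the uninjured level set at 3 reads of 52467458 (edgeR adjusted p = 0.00242).

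Of 23 contractile genes tested in these wells 4 fell, beside 0.201% of all genes tested there, while the median of all genes there was 0.00. Myh11 had 4770, 4808, 4978 and 4902 CPM at day 2 UUO against 7558, 7704, 7514 and 7699 CPM in uninjured kidneys. Myh11 had a log2 fold change of -0.65 ± 0.08 (edgeR adjusted p = 0.00386, and 0.108 without number 4). Acta2 had 28490, 29757, 30924 and 26141 CPM at day 2 UUO against 38165, 34112, 45176 and 34997 CPM in uninjured kidneys. Acta2 had a log2 fold change of -0.40 ± 0.06 (edgeR adjusted p = 0.0173). Tagln had a change of -0.53 ± 0.09 and Myl9 of -0.36 ± 0.07. The groups did not overlap for Myh11 and Acta2 and overlapped for Tagln and Myl9, with no share of all genes without overlap computed for these wells. Vim, the intermediate filament vimentin, had 993, 1221, 1029 and 770 CPM at day 2 UUO against 2352, 1944, 2639 and 2012 CPM in uninjured kidneys (-1.17 ± 0.13, edgeR adjusted p = 0.00186). Tgfb3, a transforming growth factor beta ligand, had 154, 212, 92.9 and 177 CPM at day 2 UUO against 592, 401, 565 and 414 CPM in uninjured kidneys (-1.67 ± 0.32, edgeR adjusted p = 0.0406). Pdgfrb had a change of 0.82 ± 0.16 (edgeR adjusted p = 0.048). With 1 number left out, the adjusted p ran up to 0.297 for Acta2, 0.268 for Tagln, 0.308 for Myl9, 0.208 for Tgfb3 and 0.242 for Pdgfrb. Scaled to the spike-in RNA, 27 genes passed in this class, 25 higher and 2 lower, and the values of Myh11 (-0.70, edgeR adjusted p = 0.419) and Acta2 (-0.43, edgeR adjusted p = 0.844) did not.

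The change of Spp1, which encodes osteopontin, depended on which wells were counted. Across the gate it had 551, 2219, 4000 and 4471 CPM at day 2 UUO against 936, 125, 2339 and 613 CPM in uninjured kidneys, with overlapping groups (1.40 ± 0.69, edgeR adjusted p = 0.583). Without the wells of epithelial-like clusters the change was 6.34 ± 0.41 (edgeR adjusted p = 7.22e-05). That fit still held the fibroblast-like wells, where Spp1 exceeded 10 CPM in 14 of 14 wells at day 2 UUO. Their pooled level was 13966 CPM at day 2 UUO (1061 to 35178 CPM over 3 numbers) against 9.44 CPM in uninjured kidneys. In vascular smooth muscle-like wells Spp1 had 266, 181, 289 and 152 CPM at day 2 UUO against 7.34, 1.2, 15.9 and 13.9 CPM in uninjured kidneys (4.83 ± 0.69, edgeR adjusted p = 0.00723, and 0.0988 and 0.0513 without numbers 1 and 4). In pericyte-like wells it had 361, 42.2, 488 and 321 CPM at day 2 UUO against 1.23, 1.48, 6.41 and 3.39 CPM in uninjured kidneys (6.39 ± 0.66, edgeR adjusted p = 0.0344). The groups did not overlap in either class, for which the share of all genes without overlap was not computed. Leaving out numbers was not run for pericyte-like wells. Injured tubule cells are a known source of osteopontin, Spp1 exceeded 10 CPM in 21 of 23 parietal epithelial-like wells at day 2 UUO against 18 of 26 in uninjured kidneys and in 9 of 19 podocyte-like wells at day 2 UUO against 1 of 5 in uninjured kidneys, and the part of RNA from other cells in these levels was not tested.

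Spp1 was the only gene of 12294 to pass in pericyte-like wells (0.00813%), where 460 had an unadjusted p under 0.05. Of the 72 genes of the gate 70 were tested there and 0 passed. Stat3 had 425, 773, 499 and 608 CPM at day 2 UUO against 88.6, 267, 33.9 and 181 CPM in uninjured kidneys (2.31 ± 0.40, edgeR adjusted p = 0.537). Osmr had 594, 518, 183 and 447 CPM at day 2 UUO against 140, 7, 82.2 and 145 CPM in uninjured kidneys (2.47 ± 0.72). Sparcl1 had 9706, 10738, 8730 and 6820 CPM at day 2 UUO against 3553, 4670, 3361 and 4119 CPM in uninjured kidneys (1.19 ± 0.15, edgeR adjusted p = 0.0992). These 3 genes did not overlap between conditions, but the share of all genes without overlap was not computed for these wells. Acta2 had a value of 0.47 ± 0.17 and Clu of 0.02 ± 0.81, beside -0.40 and 2.84 in vascular smooth muscle-like wells. A test of the difference between the 2 classes in the day 2 change, added after these values were seen, passed 0 of 13474 genes (0%; edgeR, 499 at an unadjusted p under 0.05), with Vim at -1.40 ± 0.19 and Tgfb3 at -2.52 ± 0.35 the nearest (edgeR adjusted p = 0.0864 for both) and Acta2 at -0.88 ± 0.16 (edgeR adjusted p = 0.478).

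**Figure D4:**
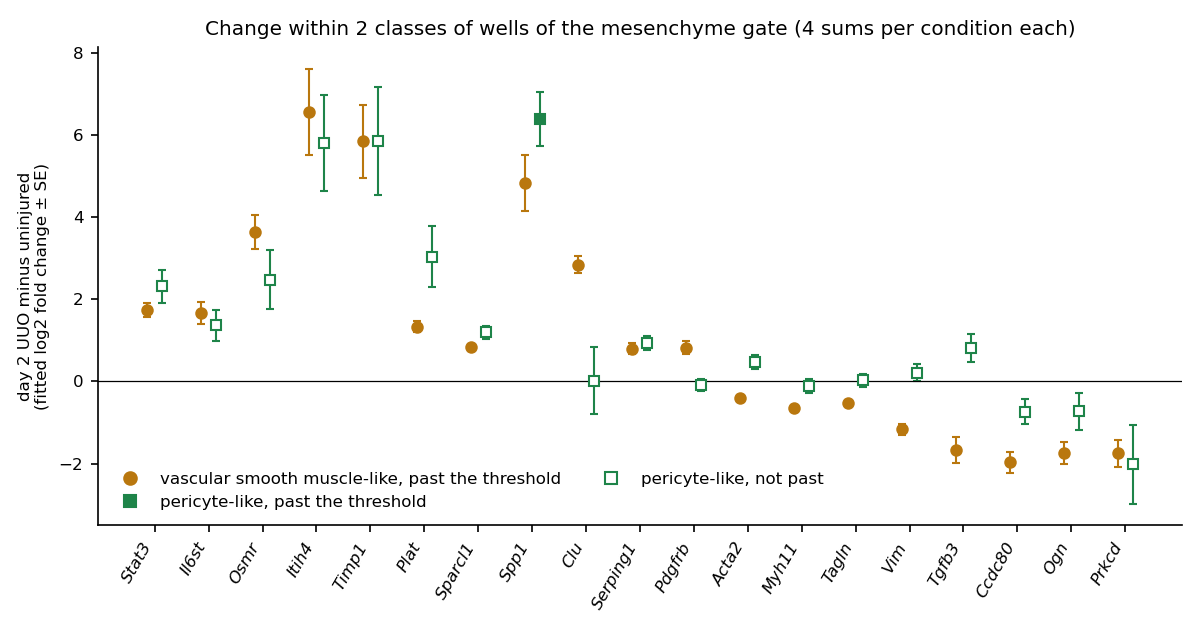
Fitted log2 fold change at day 2 UUO minus uninjured with its SE for 19 genes in vascular smooth muscle-like (orange circles) and pericyte-like wells (green squares), 4 sums per condition in each class; filled symbols passed the threshold. Stat3 at 1.73 and 2.31 is positive in both classes, while Acta2 stands at -0.40 and 0.47, a difference that did not pass its test.

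The share of wells above 10 CPM, about 4 reads in the median well, shows how widely a transcript was spread; intervals cover counting over wells only. In vascular smooth muscle-like wells Itih4 exceeded 10 CPM in 106 of 137 day 2 UUO wells (77.4%, exact binomial 95% interval 69.5 to 84.1%) against 8 of 152 uninjured wells, and Serpina3n in 74 of 137 day 2 UUO wells against 0 of 152 uninjured wells. In pericyte-like wells Itih4 exceeded it in 8 of 87 day 2 UUO wells against 2 of 87 uninjured wells, and Serpina3n in 2 of 87 day 2 UUO wells against 0 of 87 uninjured wells. Osmr exceeded it in 102 of 137 day 2 UUO against 26 of 152 uninjured vascular smooth muscle-like wells, and in 68 of 87 day 2 UUO against 19 of 87 uninjured pericyte-like wells. Podocyte-like wells at day 2 UUO, with a median of 404882 gene reads against 385970 in vascular smooth muscle-like wells of that condition, exceeded it in 1 of 19 for Osmr, 0 of 19 for Itih4 and 0 of 19 for Serpina3n. Parietal epithelial-like wells at day 2 UUO exceeded it in 9 of 23 for Osmr, 0 of 23 for Itih4 and 1 of 23 for Serpina3n. Proximal tubule-like wells at day 2 UUO exceeded it in 2 of 3 for each of these genes. The 1 loop and distal tubule-like well at day 2 UUO exceeded it for Osmr and Itih4 and not for Serpina3n. Pooled Sparcl1 at day 2 UUO was 14673 CPM in proximal tubule-like wells and 15458 CPM in the loop and distal tubule-like well. It was 16449 CPM in vascular smooth muscle-like, 21.2 CPM in parietal epithelial-like and 8.41 CPM in podocyte-like wells. Whether the tubule-like wells held mural cells with tubule RNA was not tested. Clu exceeded 10 CPM in 9 of 19 podocyte-like wells at day 2 UUO (148.8 CPM pooled) against 1 of 5 in uninjured kidneys (0.604 CPM pooled). The part of free RNA in any of these levels was not tested.

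Lcn2, Il11 and Ptgs2 rested on few wells. Lcn2 exceeded 10 CPM in 22 of 366 day 2 UUO wells against 0 of 364 uninjured wells. At day 2 UUO these included 11 of 137 vascular smooth muscle-like, 4 of 87 pericyte-like and 2 of 23 parietal epithelial-like wells. Lcn2 also exceeded it in the 1 loop and distal tubule-like well at day 2 UUO (260 CPM), and in 0 of 3 proximal tubule-like wells. Il11 exceeded 10 CPM in 7 of 14 fibroblast-like wells at day 2 UUO against 0 of 11 in uninjured kidneys, and at day 2 UUO in 2 of 87 pericyte-like wells, 3 of 19 podocyte-like wells and 0 of 137 vascular smooth muscle-like wells. Ptgs2 exceeded it in 5 of 14 fibroblast-like and 7 of 137 vascular smooth muscle-like wells at day 2 UUO, against 0 of 11 and 0 of 152 in uninjured kidneys, and in 0 of 87 pericyte-like wells of either condition. Timp1 exceeded it in 14 of 14 fibroblast-like wells at day 2 UUO against 3 of 11 in uninjured kidneys, at pooled levels of 2382 CPM at day 2 UUO and 41.3 CPM in uninjured kidneys, with a range over 3 numbers of 498 to 3586 CPM at day 2 UUO. With each well thinned to 100000 gene reads, which left out 6 day 2 UUO and 14 uninjured wells, Itih4 had a read in 107 of 135 day 2 UUO against 10 of 148 uninjured vascular smooth muscle-like wells, and Il11 in 7 of 13 day 2 UUO against 0 of 11 uninjured fibroblast-like wells. Fibroblast-like wells are too few in each number to test.

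**Figure D5:**
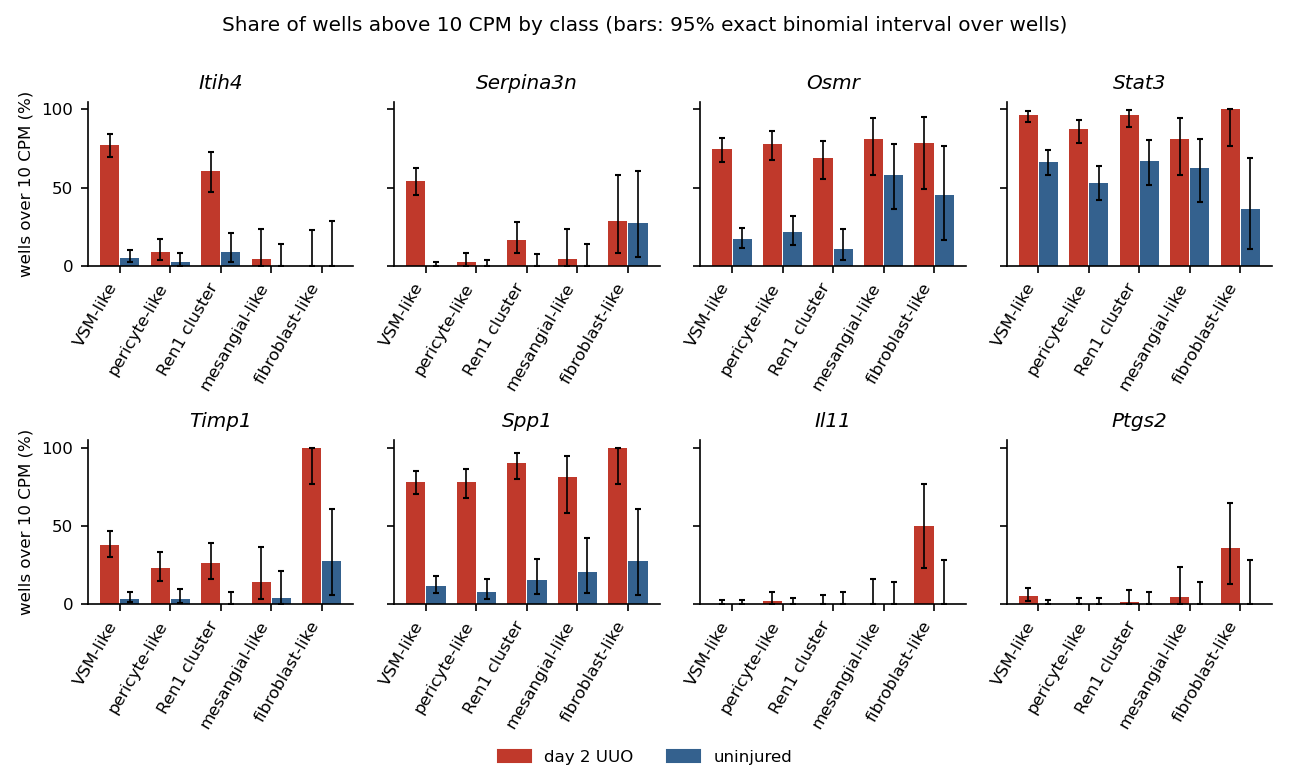
Share of wells above 10 CPM in percent (vertical axis) for 8 genes in 5 classes of wells, day 2 UUO in red left of uninjured in blue, with exact binomial 95% intervals over wells; the Ren1 cluster is the unnamed cluster led by Ren1 and Akr1b7. Itih4 and Serpina3n reach 77.4% and 54.0% of vascular smooth muscle-like wells at day 2 UUO, Osmr lies higher at day 2 UUO in each of the 5 classes, and Il11 is seen in 7 of 14 fibroblast-like wells.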

How the data were processed

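Single cells of 6 plates were sequenced by Smart-seq2. The deposited files are raw read counts per gene and per ERCC spike-in sequence for each well, made by the authors with STAR on mm10, per the submitters' processing notes; strand setting and filters are not given in the sources used here. The table has 24490 entries, and 771 entries that share 279 symbols were added, leaving 23998. No row without a gene name was found.

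Wells with at least 1000 genes and 20000 gene reads were kept, and counts were summed per number and condition. The 12 mesenchyme sums (4 each of day 2 UUO, day 10 UUO and uninjured, 20794573 to 47827752 gene reads in the day 2 UUO and uninjured sums) were fitted with edgeR 4.0.16 (R 4.3.3), with TMM scaling, filterByExpr, the quasi-likelihood test, the number as a block and Benjamini-Hochberg adjustment over all genes tested. The block was kept because wells of 1 number share plates; the deviations of same-numbered day 2 and uninjured sums correlated at 0.0877, 0.142, 0.205 and 0.0595 across genes. Wells were clustered with scanpy 1.11.5 and igraph 0.11.9, no doublet caller was run, and wells above 50 CPM in any of 7 markers of other cell types were left out in an alternative. Scripts were tested on simulated data. Intervals and floors (3 counts) cover counting error only, since reads without molecular identifiers are not independent molecules.

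Members and the 33 gene lists were chosen with earlier results of these data known. Genes were named by a rule: up to 15 of largest change in each direction whose mean level reached 3 on the log2 CPM scale, up to 6 passing members of each list or, with none, its 2 of highest level, and Acta2, Myh11, Pdgfrb, Col1a1, Havcr1 and Kap. Genes outside it (Il6, Osm, Socs3, Bcl3, Clu, Hif1a, Spp1, Ren1, Tagln, Vim, Tgfb3, C4b, Sncg and those shown by promoter) were chosen after their values were seen. Alternatives used DESeq2 1.42.0 and limma 3.58.1. One gene named by this rule is not reported here.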

Additional observations from a re-analysis of the deposited data

Results flagged for a closer look

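Of 158 groups of 4 sums examined over the named genes, 12 held 1 sum far from the other 3, where chance gives about 1 in 20. Among day 2 UUO sums these were Axl in number 2 (449 CPM, the others 724 to 756 CPM), Cd24a in number 3 (272 CPM, the others 328 to 334 CPM), Dmd in number 3 (209 CPM, the others 282 to 297 CPM) and Ntrk3 in number 2 (147 CPM, the others 56.2 to 64.9 CPM). Among uninjured sums they were Acta2 in number 4 (22358 CPM, the others 24691 to 24891 CPM), Synm in number 2 (85.3 CPM, the others 99.0 to 101 CPM), Ddx3y in number 3 (41.0 CPM, the others 101 to 104 CPM), Gstm1 in number 3 (1098 CPM, the others 408 to 470 CPM) and Itgb1 in number 3 (755 CPM, the others 1423 to 1496 CPM). Near 0, uninjured sums also stood apart for Havcr1 in number 4 (0.0236 CPM, the others 0), Serpina3n in number 4 (3.03 CPM, the others up to 0.195 CPM) and Lcn2 in number 1 (0 CPM, the others 0.0473 to 0.0487 CPM).

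The day 2 change of Sparcl1 differed between the gates by 1.75 on the log2 scale, mesenchyme minus endothelia (edgeR, adjusted p = 0.0157). Its level was higher at day 2 UUO in 4 of 4 numbers of the mesenchyme gate.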

How the results depend on the processing

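The 72 genes of the mesenchyme gate became 42 without the replicate block (33 higher, 9 lower), 38 with the 8 day 2 UUO and uninjured sums alone, 159 with plates as units, which counts mice on 2 plates more than once, 222 with limma on the mean of per-well log2 values, and 1393 with DESeq2 (705 higher, 688 lower); without the block 14 of the 40 named genes that passed no longer did. With 1 number left out the count ran from 25 to 38, for vascular smooth muscle-like wells from 26 to 53 in place of 93, and for the difference between gates from 0 to 5 in place of 12. No replicate block gave 7 genes for that difference, and no filter on low counts gave 2 for the difference between classes in place of 0. The spike-in ratio differed by 0.23 on the log2 scale as a mean over wells (exact p = 0.229), and by 0.29 to 0.37 with 1 number left out (exact p = 0.1, the smallest that 3 against 3 allows). Spike-in scaling of vascular smooth muscle-like wells, added after the data were seen, gave 27 genes. The cause of these changes was not tested. Other alternatives (no filter, stricter wells, without fibroblast-like or mixed wells, and, added after the data were seen, without epithelial-like wells) gave 65 to 99 genes for the gate. None of the 40 named genes that passed changed sign, and 13 of them passed in all 15 alternatives: Fgl2, Flot1, Itih4, Ldha, Osmr, Plat, Prkcd, Rasl10b, Sbno2, Serpina3n, Stat3, Synm and Timp1. Depth limits genes near 0 reads, such as Osm.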
